A study of Mus musculus with 3 samples.

Results

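The Nlrp genes examined here are the genes of the oocyte NLR family whose transcripts appear in a table of mouse metaphase II oocyte RNA. Members were selected on the deposited values: every row whose symbol starts with Nlrp and a digit was taken, and a gene was kept where at least 1 of its rows reached 1 TPM in at least 1 library. TPM is the authors' abundance per transcript length, scaled so that a whole library sums to 1000000. This gave 10 genes with 20 rows, of which 19 rows reached 1 TPM, out of 9126 rows of 6104 gene symbols. The genes were Nlrp2, Nlrp4a, Nlrp4b, Nlrp4e, Nlrp4f, Nlrp4g, Nlrp9a, Nlrp9b, Nlrp9c and Nlrp14. Just inside the limit was a variant of Nlrp9c (XM_017322312) at 1.34 TPM in aged-sec, 1.19 TPM in aged and 0.79 TPM in young oocytes. Just outside was a variant of Nlrp4a (XM_030242565) at 0.35, 0.56 and 0.07 TPM in the same order, which is described with its gene, and a second copy of Nlrp1a at 0.04, 0.03 and 0.01 TPM, which is not.

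The samples were 3 libraries of ICR mouse oocytes. They were oocytes of aged mice matured in medium with secretome, the factors shed by mesenchymal stem cells of the human umbilical cord (aged-sec), aged oocytes matured without it (aged), and young oocytes without it (young). In every group immature oocytes spent 16 to 18 h in M16 medium to reach metaphase II, and each library pooled 20 of them from 4 mice. No ages of the animals were found in the labels. The treatment label names the secretome on all 3 libraries, so the groups follow the titles. With 1 library per group there is no replicate error and no test, and every difference below is between libraries. Every listed row has an aged value at 1.2 times its young value or more, so the direction of that comparison is fixed by the table. The aged library is shared with the comparison of the aged-sec library, whose ratio to aged is pulled down by the same selection. Listed rows summed to 321460 TPM in aged-sec, 324814 TPM in aged and 229243 TPM in young oocytes. Of 16 oocyte markers 7 were listed, summing to 6951, 7342 and 4904 TPM in that order. Of 15 cumulus and granulosa cell markers 2 were listed, at a sum of 1.11, 1.74 and 0.07 TPM, and of 8 leukocyte markers 1, at 0.01, 0.02 and 0.01 TPM; the other markers were not analysed here, and the table holds no value of 0. The part of such cells in the Nlrp values was not tested.

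NLR proteins with a pyrin domain are built from an N-terminal pyrin domain, a central nucleotide-binding NACHT domain and C-terminal leucine-rich repeats. Some, such as Nlrp3, assemble inflammasomes in immune cells, while a reproductive branch is transcribed in growing oocytes, stored in the egg and needed by the early embryo. The best known of that branch, Nlrp5 (MATER), belongs to the subcortical maternal complex, a protein assembly under the egg membrane required for the first cleavages in mice. Nlrp2 and Nlrp4f are further components of this complex in the mouse. The RefSeq annotation used for names (GRCm38.p6) has 18 protein-coding Nlrp genes. Of the 10 members 8 are on chromosome 7, Nlrp4g is on chromosome 9 and Nlrp4f on chromosome 13. Nlrp9c, Nlrp4a and Nlrp9a follow each other on chromosome 7 with no other protein-coding gene between them, and Nlrp4e lies next to Nlrp5. Nlrp5, Nlrp4c, Nlrp3, Nlrp6, Nlrp10, Nlrp12 and Nlrp1b were not analysed here.

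Several of these genes have like transcripts, among which reads can be divided by quantification; Nlrp2 and Nlrp14 have no close relative among the members. The first 60 coding bases (GENCODE M21, GRCm38) are shown for the Nlrp4 and Nlrp9 branches to let this be seen. Among the Nlrp4 genes, capitals mark bases that differ from Nlrp4f at the same position.
Nlrp4f: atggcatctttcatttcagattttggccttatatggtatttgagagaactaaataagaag
Nlrp4a: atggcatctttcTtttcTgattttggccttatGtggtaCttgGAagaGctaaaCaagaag
Nlrp4e: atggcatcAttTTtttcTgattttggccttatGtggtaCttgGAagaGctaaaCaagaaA
Nlrp4b: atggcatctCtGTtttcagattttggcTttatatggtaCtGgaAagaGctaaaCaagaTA
Nlrp4a differed from Nlrp4f at 8 of the 60 bases, and Nlrp4e and Nlrp4b at 11 each. Nlrp4g has no coding sequence in GENCODE M21, which calls it a transcribed pseudogene, while RefSeq calls it protein-coding. In the Nlrp9 branch, capitals mark bases that differ from Nlrp9a.
Nlrp9a: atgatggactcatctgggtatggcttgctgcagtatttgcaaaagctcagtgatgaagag
Nlrp9c: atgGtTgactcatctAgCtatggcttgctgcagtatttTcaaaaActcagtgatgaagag
Nlrp9b: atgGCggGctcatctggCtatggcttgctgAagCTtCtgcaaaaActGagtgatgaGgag
Nlrp9c differed from Nlrp9a at 6 of these bases and Nlrp9b at 11.

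Over whole transcripts the family fell into the Nlrp4 branch, the Nlrp9 branch, and Nlrp2 and Nlrp14 on their own. In local alignments, identical bases covered 53.3% to 93.9% of the shorter transcript in the 13 pairs within the Nlrp4 or the Nlrp9 branch. In the 32 other pairs they covered 2.4% to 22.5%. The closest pair was Nlrp4f and Nlrp4g, identical at 1906 of 2027 aligned bases (94.0%). Nlrp9a and Nlrp9c were identical at 2682 of 3043 (88.1%). Stretches long enough to hide a read were rarer. Of all 100-base windows of the Nlrp4e transcript 379 (11.54%) also occurred without a mismatch in transcripts of other genes, Nlrp4c and 5 predicted Gm genes. For Nlrp9b the share was 1.36%, for Nlrp9a 0.99%, for Nlrp9c 0.45%, for Nlrp4f 0.15%, and for Nlrp14, Nlrp2, Nlrp4a, Nlrp4b and Nlrp4g no window was shared. Windows shared between copies or variants of the same gene do not enter these shares, which leaves out the copies of Nlrp4g. No read length was found in the labels, and 100 bases is a round choice.

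**Figure D1:**
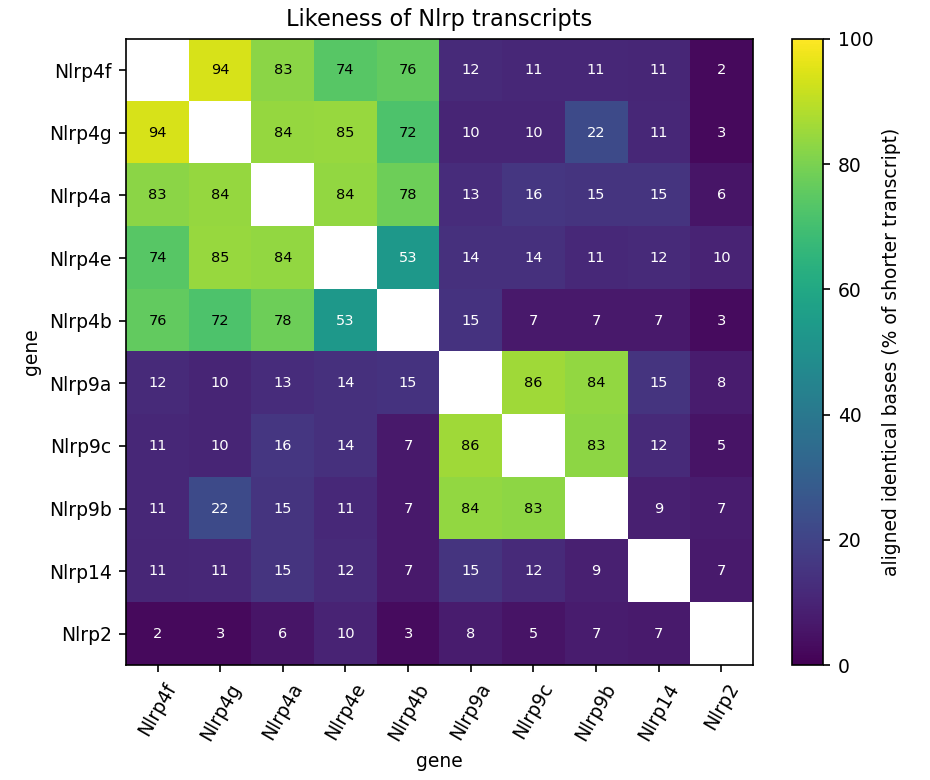
Heat map of identical aligned bases as a percentage of the shorter transcript for each pair of the 10 Nlrp genes, from local alignments of 1 GENCODE M21 transcript per gene. The bright blocks are the 5 Nlrp4 and the 3 Nlrp9 genes; Nlrp4f and Nlrp4g share 93.9% and no pair outside the blocks exceeds 22.5%.

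The Nlrp genes together held 3169 TPM in aged-sec, 3504 TPM in aged and 1610 TPM in young oocytes, or 0.317%, 0.35% and 0.161% of each library. Of the listed TPM they made up 0.986%, 1.079% and 0.702%. The summed aged over young ratio was 2.177, and the summed aged-sec over aged ratio 0.905. By branch, the 5 Nlrp4 genes summed to 1795 TPM in aged-sec, 2020 TPM in aged and 851 TPM in young oocytes. The 3 Nlrp9 genes summed to 455, 496 and 202 TPM, and Nlrp2 with Nlrp14 to 919, 988 and 557 TPM in the same order. As deposited, all 3 sums were highest in aged, a little lower in aged-sec and lowest in young oocytes; which of aged-sec and aged is higher turns with the scaling of the libraries, as given with that comparison. Sums cover listed rows alone, since 1 or 2 RefSeq variants of Nlrp14, Nlrp4a, Nlrp4e, Nlrp9a, Nlrp9b and Nlrp9c were not analysed here. For Nlrp4g the first copy of 1 variant was not analysed either. In pooled cells, more transcript per oocyte and a change in the rest of the RNA cannot be told apart in TPM.

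Nlrp14, a maternal factor that mouse eggs need for embryos to develop, had the highest level of the family. It stood at 867 TPM in aged-sec, 931 TPM in aged and 516 TPM in young oocytes, and ranked 46th, 43rd and 54th among all listed rows. Its only listed row (NM_001002894) is a transcript of 11 exons and 2979 coding bases. Its aged over young ratio of 1.804 did not reach 2-fold.

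Nlrp4f (NM_175290), the subcortical complex component, came second in all 3 libraries. It stood at 650 TPM in aged-sec, 742 TPM in aged and 288 TPM in young oocytes. Its aged over young ratio was 2.574 and its aged-sec over aged ratio 0.875, so the aged-sec value lay much nearer to aged than to young. RefSeq annotates 1 mRNA for the gene, so no split among its own variants enters this value. Its closest relative by sequence, Nlrp4g, showed a similar set of ratios, 2.611 and 0.808 on the sum of its 3 rows. Nlrp4g summed to 339 TPM in aged-sec, 420 TPM in aged and 161 TPM in young oocytes. The rows of Nlrp4g include 1 accession at 2 places: NM_001346422 stood at 36.4, 47.0 and 24.9 TPM in that order, and its second copy at 149, 183 and 74.5 TPM. The second copy of NM_001004145 stood at 154, 190 and 61.4 TPM, and its first copy was not analysed here. How reads were shared between copies is not stated in the labels, so the sum is given beside the copies.

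A predicted variant of Nlrp4a had the largest aged over young ratio among the Nlrp rows with at least 10 TPM. XM_011250567 stood at 139 TPM in aged-sec, 151 TPM in aged and 23.99 TPM in young oocytes, an aged over young ratio of 6.274. Its curated variant NM_172896 stood at 220, 242 and 141 TPM, a ratio of 1.714. The predicted variant therefore made up 38.7% of the gene's listed TPM in aged-sec, 38.3% in aged and 14.5% in young oocytes. Summed, the gene stood at 359, 393 and 165 TPM, a ratio of 2.379 between aged and young.

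Nlrp4b and Nlrp4e stood lower. Nlrp4b summed to 273 TPM in aged-sec, 271 TPM in aged and 134 TPM in young oocytes. Its main variant NM_172481 stood at 214, 202 and 107 TPM, and NM_001355151 at 59.7, 68.9 and 27.9 TPM. These variants share 97.58% to 99.18% of their 100-base windows, so their division rests on short stretches. Nlrp4e (NM_001004194), whose knockdown arrests early mouse embryos, stood at 174 TPM in aged-sec, 194 TPM in aged and 102 TPM in young oocytes. It was ordered sixth in young and eighth in both other libraries.

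Nlrp9b, which in mouse gut epithelium forms an inflammasome against rotavirus, had the highest summed aged over young ratio of the 10 genes, 2.715. It summed to 243 TPM in aged-sec, 274 TPM in aged and 101 TPM in young oocytes. Its 4 listed variants did not stand in the same order of libraries. XM_011250565 stood at 84.6, 117 and 31.5 TPM in that order, and XM_006539938 at 72.6, 88.4 and 45.1 TPM. The curated NM_194058 stood at 69.8 TPM in aged-sec, 59.1 TPM in aged and 17.5 TPM in young oocytes. The weakest, XM_011250563, stood at 16.2, 10.2 and 7.02 TPM, and is the row with the highest aged-sec over aged ratio of the family, 1.588. The first pair was lower and the second pair higher in aged-sec than in aged oocytes. The leading variant was XM_011250565 in aged-sec (34.8% of the gene) and in aged oocytes (42.5%), while it was XM_006539938 in young oocytes (44.6%).

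Nlrp9a summed to 192 TPM in aged-sec, 202 TPM in aged and 91.2 TPM in young oocytes. NM_001048220 (9 exons, 2847 coding bases) stood at 122, 135 and 64.9 TPM, and NM_001048219 (10 exons, 3012 coding bases) at 69.4, 67.0 and 26.3 TPM. The longer variant held 36.2% of the gene in aged-sec, 33.1% in aged and 28.8% in young oocytes. These variants share 90.42% to 96.73% of their 100-base windows, so this division too rests on short stretches. The predicted variants of Nlrp4a and Nlrp9b have no GENCODE transcript, and their shared windows were not counted. Nlrp9c, a close relative, was the lowest gene of the family at 20.2, 19.2 and 9.36 TPM. Nlrp2 (NM_177690) stood at 52.6 TPM in aged-sec, 57.3 TPM in aged and 41.3 TPM in young oocytes, with the smallest summed aged over young ratio, 1.387.

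The order of the summed levels was Nlrp14, Nlrp4f, Nlrp4g, Nlrp4a, Nlrp9b, Nlrp4b, Nlrp9a, Nlrp4e, Nlrp2 and Nlrp9c in aged oocytes. In aged-sec oocytes Nlrp4a stood before Nlrp4g and Nlrp4b before Nlrp9b. In young oocytes Nlrp4a, Nlrp4g, Nlrp4b, Nlrp4e, Nlrp9b and Nlrp9a followed Nlrp4f. Without replicates no spread tells which neighbours in these orders differ.

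**Figure D2:**
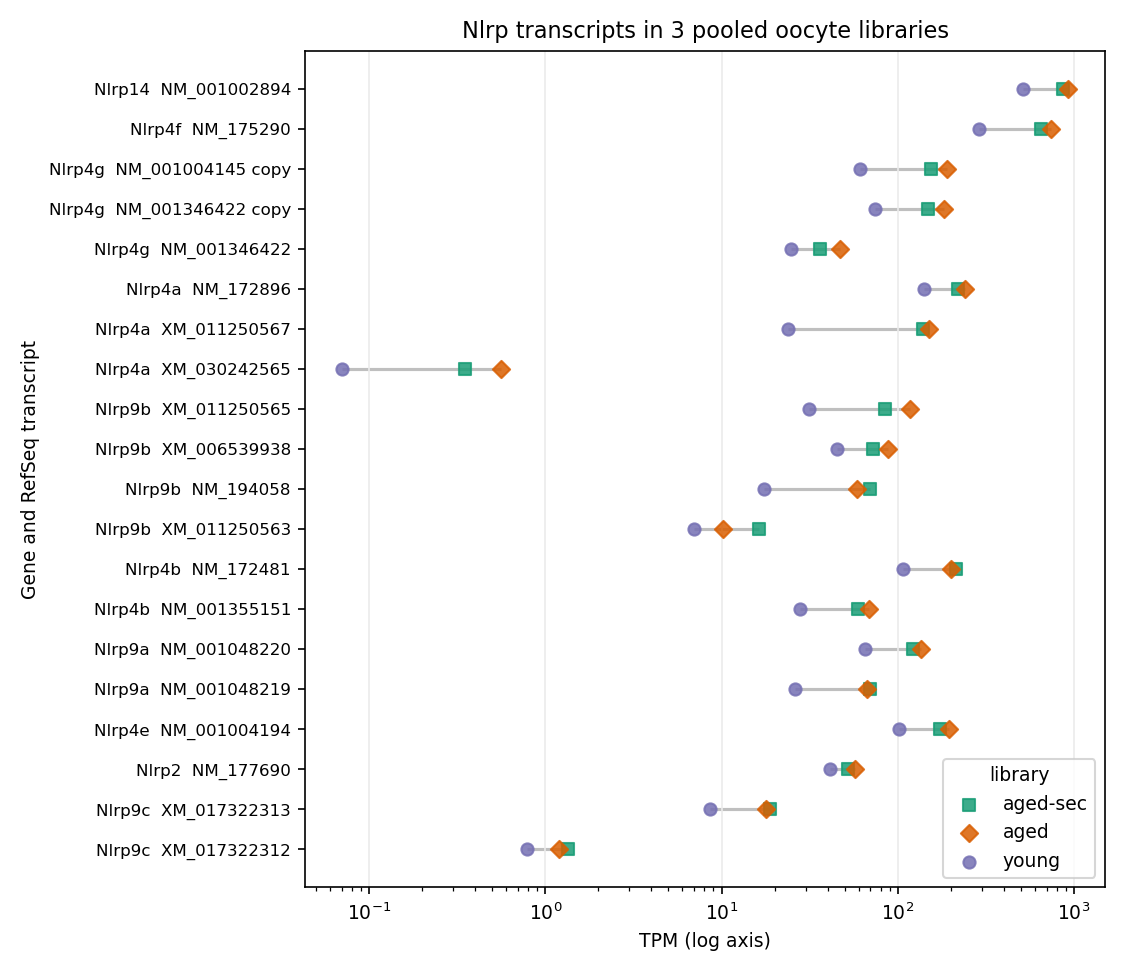
TPM of the 20 Nlrp transcript rows on a log axis, with 1 square for aged-sec, 1 diamond for aged and 1 circle for young oocytes, 1 library each. As deposited, the young value is the lowest in all 20 rows, which for aged against young the table's selection fixes. In the same values aged-sec lies between young and aged in 14 rows and above aged in 6. These orders turn with the scaling of the libraries, for young in some rows only.

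**Figure D3:**
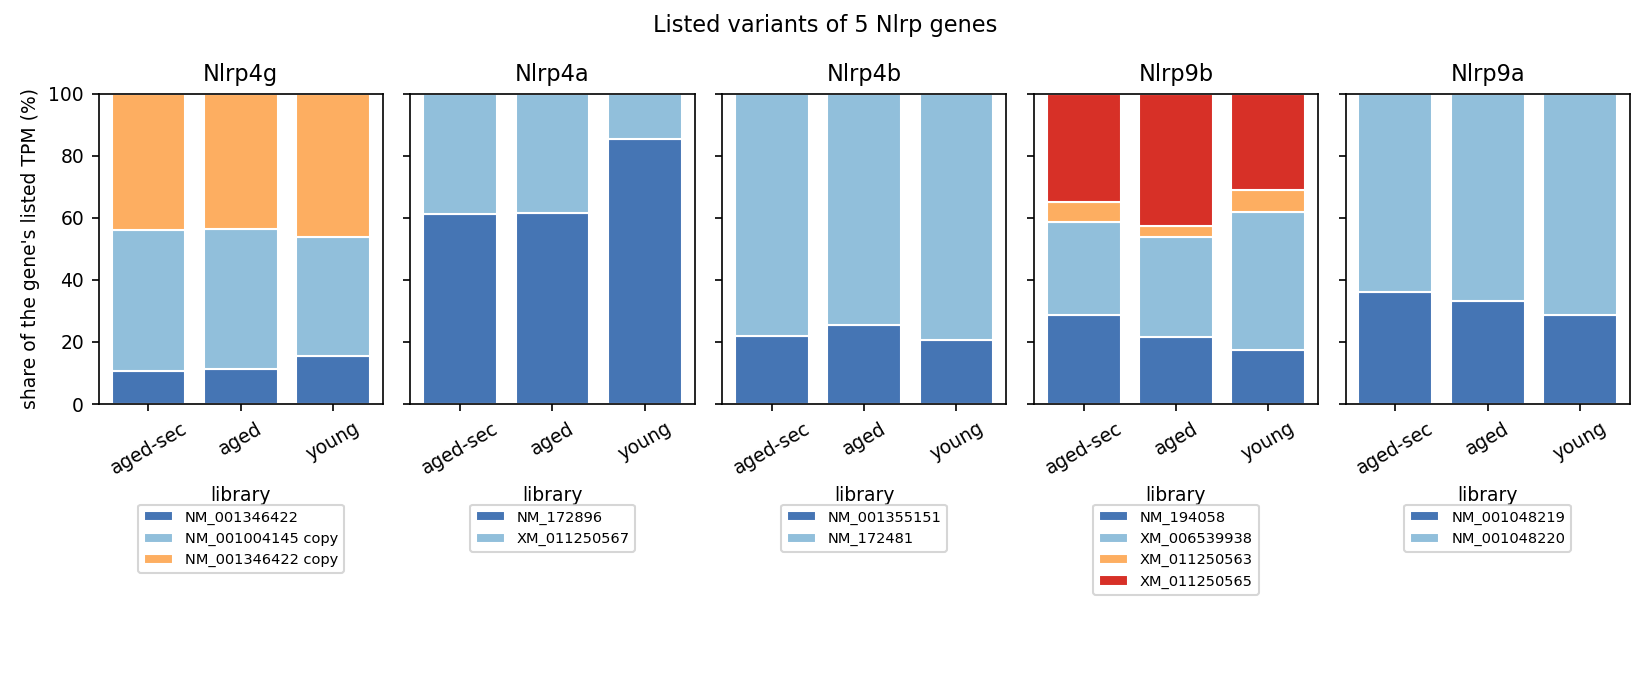
Share of each gene's listed TPM (%) by variant in the aged-sec, aged and young library, for 5 of the 6 Nlrp genes with several rows at 1 TPM or more; Nlrp9c, whose second row reached 1.34 TPM at most, is not drawn. In Nlrp4a the predicted variant holds 38.7%, 38.3% and 14.5%, and in Nlrp9a the longer variant holds 36.2%, 33.1% and 28.8%.

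The study set out to follow the loss of maternal mRNA, and the contrast of aged with young oocytes gives the level of stored transcripts at metaphase II. A row was counted as higher where the ratio was at least 2-fold with 0.5 TPM added to each value and the higher of both libraries reached 10 TPM. This was met by 10 of the 18 Nlrp rows with enough TPM, or 55.6%, against 18.2% of all 2186 such rows (398). With a minimum of 100 TPM, a limit set after seeing the data, it was 6 of 10 Nlrp rows against 11.4% of 367 rows. The median log2 ratio was 1.04 over the 18 Nlrp rows and 0.56 over all 2186. The 10 rows were Nlrp4f, both of Nlrp9a, 2 of Nlrp9b, 2 of Nlrp4g, and 1 each of Nlrp4a, Nlrp4b and Nlrp9c. Nlrp14, Nlrp2 and Nlrp4e had none. The row nearest above the limit was Nlrp9c XM_017322313 (18.9 TPM in aged-sec, 18.0 TPM in aged and 8.57 TPM in young oocytes, log2 ratio 1.03). The nearest below it was Nlrp9b XM_006539938 (log2 ratio 0.96). These counts describe rows that all entered through a high aged over young ratio, and rows of 1 gene or branch share sequence, so they are not independent. When libraries were scaled to equal medians of the listed rows, which shifts log2 levels by −0.50 in aged-sec and −0.78 in aged relative to young, 2 of 18 Nlrp rows and 76 of 2186 rows met the rule.

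Setting aged-sec against aged oocytes gives the levels after maturation in secretome. Of the 18 Nlrp rows 0 differed 2-fold in either direction. Among all 2239 rows with enough TPM, 0.223% were higher and 2.95% lower by this rule. At 1.5-fold 1 of the 18, the weakest Nlrp9b variant, was higher and 0 were lower, against 40 higher and 253 lower of all 2239. Of the 20 Nlrp rows 14 were below their aged value and 6 above, and of all 9126 rows 70.6% were below. The median log2 ratio was −0.14 over the 18 Nlrp rows and −0.17 over all 2239, and with the listed rows scaled to equal medians the Nlrp value became 0.14. The direction of this small difference therefore depends on the scaling. The 6 rows above aged were 2 of Nlrp9b, 2 of Nlrp9c, 1 of Nlrp9a and 1 of Nlrp4b, which makes 5 of the 8 Nlrp9 rows and 1 of the 10 Nlrp4 rows. The median log2 ratio was 0.06 over these 8 Nlrp9 rows and −0.20 over these 10 Nlrp4 rows, with no minimum TPM. On summed TPM the branches lay closer, with aged-sec over aged ratios of 0.918 for Nlrp9 and 0.889 for Nlrp4. No test of a difference between the branches was possible.

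**Figure D4:**
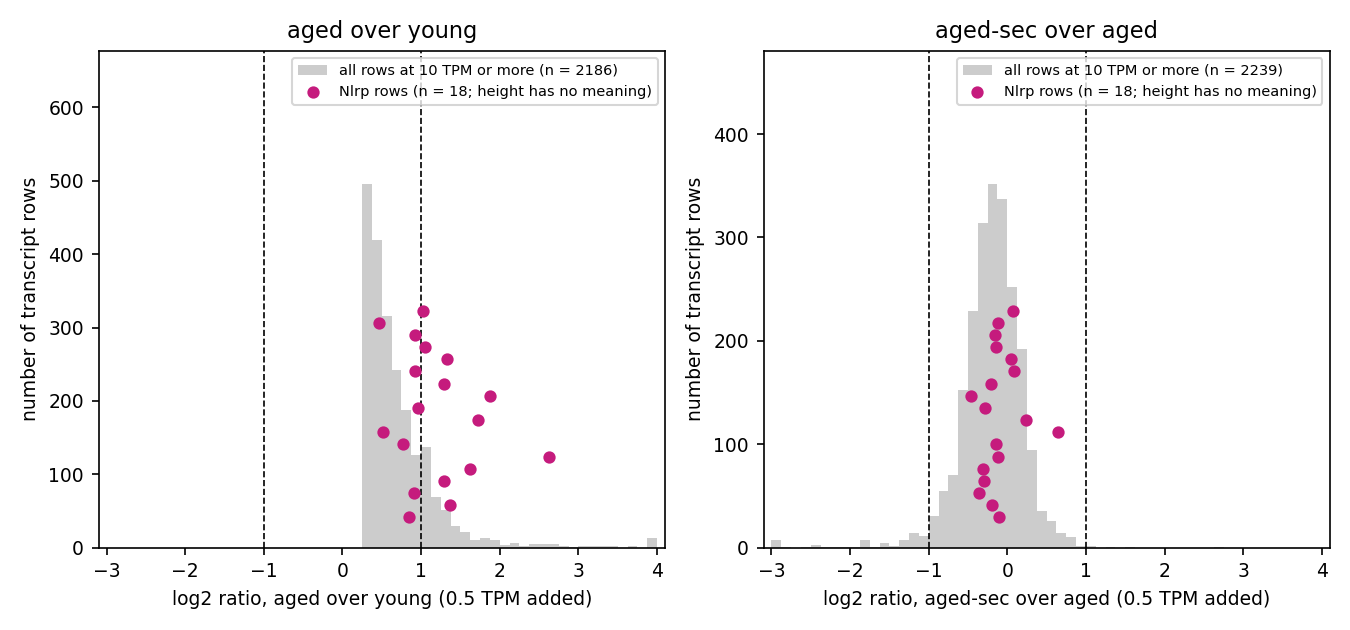
Histograms of log2 ratios (0.5 TPM added) over all rows reaching 10 TPM in the higher library, for aged over young on the left and aged-sec over aged on the right, with the 18 Nlrp rows as points whose height has no meaning; values beyond −3 and 4 are drawn at the ends and dashed lines mark 2-fold. On the left 10 of 18 Nlrp points lie right of 2-fold, where the table begins at a ratio of 1.2, and on the right none lies beyond it.

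Between aged-sec and young oocytes, a ratio on which the table was not cut, all 20 Nlrp rows were higher in aged-sec as deposited. The 2-fold rule was met by 10 of 18 rows in the higher direction, against 17.1% of 1999 rows, and by none in the lower direction, against 0.45%. One of these, Nlrp4b NM_172481, lay at the limit (log2 ratio 1.00). Under equal medians 2 of 18 met the rule as higher and 0 as lower, against 89 higher and 21 lower of 1999 rows. The log2 ratio of Nlrp2 then became −0.15. As deposited, Nlrp4a XM_011250567 had the highest ratio, 5.78. The other rows with enough TPM ran from 1.272 for Nlrp2 to 3.981 for Nlrp9b NM_194058. Of all 9126 rows 24.2% were at or below their young value in aged-sec oocytes, and of the 20 Nlrp rows 0. Among the 1999 rows with enough TPM 12.7% were below it, and of the 18 Nlrp rows 0. The table's selection still reaches this comparison. A low young value helps a row to be listed, and the same young value is the base of this ratio, which pulls it up. The selection also reaches it through whatever aged and aged-sec oocytes share.

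The other genes around the family were read from lists, each gene by its row with the highest mean TPM alone. Of 12 genes of the subcortical maternal complex and the cytoplasmic lattices, egg structures that store maternal protein, 5 were listed, and 3 of these were Nlrp14, Nlrp4f and Nlrp2. The others were low. A predicted variant of Uhrf1, a partner of the DNA methyltransferase Dnmt1, stood at 0.24 TPM in aged-sec, 8.43 TPM in aged and 2.34 TPM in young oocytes, and Zbed3, a further complex member, at 1.53, 1.88 and 0.69 TPM. In the age comparison 1 of the 3 members with enough TPM, Nlrp4f, met the 2-fold rule, against 18.2% of all rows. Between aged-sec and aged oocytes 0 of 3 did, against 0.223% of all rows higher and 2.95% lower. Over the 5 rows, each at 1 TPM or more, the median log2 ratio was 1.00 for aged over young and −0.19 for aged-sec over aged. Over all 9126 rows, which had no minimum, it was 0.48 and −0.19. Over all rows at 10 TPM or more it was 0.56 and −0.175. These medians rest on unlike minimums. Ooep, Tle6, Khdc3, Padi6 and Npm2 were not analysed here.

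Of 18 inflammasome genes 6 were listed and 4 reached 1 TPM. All listed rows of the 6, Nlrp9b included, summed to 514 TPM in aged-sec, 600 TPM in aged and 342 TPM in young oocytes. Single genes are again given by their highest row, so part of these sums is not shown. The highest row of Txnip, an inhibitor of thioredoxin that binds Nlrp3 in other cells, stood at 148, 184 and 127 TPM in that order. Nek7, a kinase that bridges Nlrp3 subunits, stood at 6.91, 8.44 and 5.01 TPM. Dhx9, the RNA helicase that works with Nlrp9b in gut epithelium, had 1 predicted variant at 1.14, 2.18 and 1.29 TPM. Nlrp9b alone met the 2-fold rule among the 2 members with enough TPM in the age comparison, against 18.2% of all rows, and 0 of 2 did between aged-sec and aged, against 0.223% higher and 2.95% lower. So few members give no share to set against these. The sensor Aim2 stood at 0.32, 0.35 and 0.13 TPM. Over the 4 rows at 1 TPM the median log2 ratio was 0.64 for aged over young and −0.39 for aged-sec over aged. Over all 9126 rows, which had no minimum, it was 0.48 and −0.19. Over all rows at 10 TPM or more it was 0.56 and −0.175. The 0.5 TPM added shrinks the log2 ratios of low rows, so these medians are not like for like. Pycard, Casp1, Gsdmd, Il1b and Il18 were not analysed here. Of 12 other NLR genes Nlrc3, an inhibitory NLR, and Naip5 were listed, Nlrc3 (NM_175547) at 22.4 TPM in aged-sec, 18.8 TPM in aged and 11.9 TPM in young oocytes.

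Patterns most like those of the family were sought over the 3 libraries as the distance between pairs of log2 ratios, aged over young and aged-sec over aged, among 2139 rows at 10 TPM or more. Nearest to Nlrp4f were Ercc6l (distance 0.03 at 29.1 TPM in aged-sec, 33.5 TPM in aged and 13.0 TPM in young oocytes), Dppa1 and a variant of Dicer1. Nearest to Nlrp14 were Ptp4a2, Zfp120 and Rnf170, to Nlrp2 Usp46, Eif2a and Mzt1, and to Nlrp4e Ttc23, Zfp955a and Nup160. The main rows of Nlrp4a, Nlrp4b and Nlrp4g were nearest to Dnajc17, Klhl24 and Atad1 in that order. Those of Nlrp9a, Nlrp9b and Nlrp9c were nearest to Fam107b, Tor1aip1 and Thoc7. With 3 libraries such likeness is met by many rows and is a description.

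The sequence before the annotated start is shown for 2 pairs of like genes, chosen because they were the only pairs within a branch whose windows aligned over more than 50 bases. RefSeq (GRCm38.p6) promoter windows were found for 8 of the 10 genes, 10 windows in all, and not for Nlrp14 and Nlrp4g. The last 150 bases before the start are given, with the motifs CCAAT (either strand) and CANNTG, the E-box bound by factors such as the oocyte regulator Figla, in capitals; N is any base.
Nlrp4a, chr7:26435464-26435613, plus strand: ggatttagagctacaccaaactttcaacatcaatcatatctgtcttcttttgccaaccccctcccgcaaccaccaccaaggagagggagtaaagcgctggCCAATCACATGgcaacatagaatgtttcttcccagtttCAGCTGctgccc
Nlrp4b, chr7:10687643-10687792, plus strand: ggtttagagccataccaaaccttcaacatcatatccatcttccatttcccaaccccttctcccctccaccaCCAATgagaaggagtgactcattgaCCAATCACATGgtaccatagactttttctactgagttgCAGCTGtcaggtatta
Nlrp9a, chr7:26534873-26535022, plus strand: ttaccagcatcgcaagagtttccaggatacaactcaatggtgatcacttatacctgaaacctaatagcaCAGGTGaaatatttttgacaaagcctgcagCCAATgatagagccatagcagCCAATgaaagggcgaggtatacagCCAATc
Nlrp9c, chr7:26403701-26403850, minus strand: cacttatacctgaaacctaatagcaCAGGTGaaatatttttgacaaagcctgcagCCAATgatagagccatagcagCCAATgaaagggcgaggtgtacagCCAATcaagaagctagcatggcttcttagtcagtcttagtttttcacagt
Motifs were sought, and pairs of windows aligned, in the 250 bases before each start. The windows have 300 bases, of which the 50 after the start were left out. The Nlrp9a and Nlrp9c windows were identical at 176 of 190 aligned bases (92.6%), and both hold 3 CCAAT and 1 CANNTG. Those of Nlrp4a, at the second of 2 annotated starts, and Nlrp4b were identical at 176 of 222 (79.3%), and in both a CCAAT is directly followed by a CANNTG. In every other pair within the Nlrp4 or the Nlrp9 branch, and between the first Nlrp4a start and Nlrp4b, the best alignment spanned 13 to 50 bases, although their transcripts are alike. That adjacent pair, noticed in these sequences, was in 3 of the 10 Nlrp windows, of which 2 are overlapping windows of Nlrp4b, and in 0.454% of all 32851 windows. CCAAT was in 7 of the 10 Nlrp windows and in 33.8% of all windows, and CANNTG in 8 of 10 and in 66.2%. The 10 windows are not independent, since Nlrp4a and Nlrp4b have 2 each and those of Nlrp9a and Nlrp9c are alike. TAATTG, a homeobox motif like that of the oocyte factor Nobox, was in 2 of 10 and in 7.2%, and TATAAA in 1 of 10 and in 12.4%, each on either strand. A match of letters is not a measured site.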

How the data were processed

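RNA of 3 pooled libraries was measured (20 oocytes of 4 mice each), from full-length SMART-Seq cDNA cut by a transposon, per the labels' protocols; the DNBSEQ platform is named in the series text. The authors deposited 1 table with a TPM value for each RefSeq transcript and library, per the file headers. Its deposited ratio columns, aged to young and aged-sec to aged, match the TPM quotients to within 6.6e-07. The tools that aligned and quantified the reads, and their build, are not given in the sources here. The table holds 9126 rows with no 0 and a lowest aged over young ratio of 1.2. TPM keeps no read number, so depth is unknown and no counting interval was given; TPM of genes with near copies depends on how reads were divided.

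Log2 ratios had 0.5 TPM added, and the size rule asked for a 2-fold ratio and 10 TPM in the higher of both libraries. The code applying it was checked on simulated ratios, which gives the rule no error rate. It replaces any test, since each group had 1 library. Members and gene lists were chosen with earlier results of these data known. Named were all Nlrp rows, the leading members of 3 lists, and the 3 symbols nearest in pattern to each Nlrp gene, of which the text gives all for Nlrp4f, Nlrp14, Nlrp2 and Nlrp4e and the first for the rest. All 20 Nlrp rows matched RefSeq by accession, and 10 matched a GENCODE M21 transcript. For Nlrp4g and Nlrp9c the longest GENCODE transcript was used, protein-coding where there was one. Alignments were local (Biopython 1.88, match 1, mismatch -1, gap -3 and -1). Tables were handled with Python 3.11.15, pandas 2.3.3 and NumPy 2.4.6. Alternatives were other pseudocounts, scalings, minimums and folds, curated rows and summed rows.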

Additional observations from a re-analysis of the deposited data

How the results depend on the processing

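No paired analysis was possible because each group had 1 library, and for the same reason none could be left out. The median log2 ratio over Nlrp rows with enough TPM was 1.04 for aged over young as deposited. It was 1.06 and 1.02 with 0.1 and 1 TPM added, 1.08 with the rows of a gene summed, 1.01 with curated rows summed, and 0.28 and 0.27 with the listed rows scaled to equal medians and upper quartiles. For aged-sec over young it was 1.04, and then 1.05, 1.025, 1.07, 1.02, 0.55 and 0.51 under the same settings. For aged-sec over aged it was −0.14, with −0.13 and −0.12 for summed and curated summed rows, and it changed sign to 0.14 and 0.11 under equal medians and upper quartiles. Both scalings take the selected rows as their base.

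The number of rows past the size rule in aged over young was 398, with 76 under either scaling, 1284 with a minimum of 1 TPM, 1364 with none, 1041 at 1.5-fold, 243 with curated rows and 42 with a minimum of 100 TPM. In aged-sec over young it was 350, with 110 and 108 under the scalings, 1029, 1097, 765, 200 and 41 for the rest in that order. In aged-sec over aged it was 71, with 529 and 566 for the lower minimums, 293 at 1.5-fold, 43 curated and 0 with 100 TPM. Its split of 5 higher and 66 lower became 16 and 37, or 12 and 41, under the scalings, and that of aged-sec over young, 341 and 9, became 89 and 21, or 84 and 24. Nlrp rows past the rule in aged over young were 10 of 18 as deposited and ran from 2 under either scaling to 16 at 1.5-fold. Depth is unknown from TPM, and 1 library per group sets the limit of every value.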

Other observations

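Nlrc3 was another NLR gene with several listed variants. Of its 8 rows the leading one, NM_175547, stood at 22.4 TPM in aged-sec, 18.8 TPM in aged and 11.9 TPM in young oocytes. The predicted variant XM_011245906 stood at 7.16, 7.66 and 4.39 TPM in the same order and was the only 1 of the 8 below its aged value in aged-sec oocytes.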
